A study of Ovis aries with 22 samples.

Results

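Interleukin and interleukin receptor genes were followed in arterial sinus wall from sheep (Ovis aries). The members were all symbols of the count tables that begin with IL followed directly by a digit, except IL2RB and IL7R, which left 78 of 26200 named genes. Of these, 38 passed the filter on low counts and were tested, and 40 did not pass. In the Ross procedure the pulmonary root is moved into the aortic position, and the transplant is then known as an autograft. The autograft group holds sinus wall of 3 operated sheep, 6 months after the operation. Both native groups, aortic and pulmonary sinus, come from the same 4 other sheep (D3 to D6), described as not operated. The labels used here give no breed, sex or age. Replicate 1 of the aortic group, from animal D3, is labelled as operated, against the design text. It stayed in the aortic group, and results were also computed without it.

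Interleukins are secreted signalling proteins by which immune cells, endothelium and other wall cells act on each other. Most receptors are built from a chain that binds 1 ligand and a chain shared by several ligands. Type I and II receptors signal through Janus kinases and STAT factors, while receptors of the interleukin-1 and interleukin-17 families signal through adaptor proteins to NF-kB. The arterial wall is mainly smooth muscle, which carries some of these receptors itself, for example gp130, the shared chain of the interleukin-6 family. Natural inhibitors, such as receptor antagonists and decoy receptors, limit the response.

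RNA was sequenced in 11 libraries, each in 2 runs that were added, to totals between 17380599 and 20741334 counts. Levels are counts scaled to library size (CPM) with TMM factors, and replicates are listed in number order. The smooth muscle genes MYH11 and ACTA2 were abundant in all 11 libraries, at no less than 5184 and 7665 CPM. The summed level of 10 smooth muscle markers lay between 27142 and 53309 CPM in the autograft and between 54834 and 93939 CPM in the native libraries. On the first principal component of all tested genes, pulmonary replicate 1 had a score of 9.34, near the aortic libraries (-30.6 to 8.46) and apart from the other pulmonary libraries (-67.6 to -29.5). Autograft replicate 1 stood apart on the second component, at 64.1 against -31.5 to 24.2 in the others. In bulk tissue, fewer cells of a type and less RNA per cell cannot be told apart.

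Against native pulmonary sinus, the tissue the autograft was made from, 10 of 38 tested interleukin genes were higher in the autograft and none was lower. They were the shared receptor chains IL2RG and IL6ST, the receptor chains IL15RA, IL6R, IL10RA, IL3RA and IL18RAP, the ligands IL10 and IL1B, and the antagonist IL1RN. A gene was called when its adjusted p in edgeR's quasi-likelihood test, over 14979 genes, was under 0.05. Of all genes tested, 11.3% were called in that comparison, 6.05% higher and 5.29% lower. The members' median log2 fold change was 0.98, beside 0.00 over all genes tested. The count filter asks for enough counts in as many libraries as the smallest group, the autograft, holds. A member low in native tissue could therefore pass through the autograft alone, which bears on these counts and medians in both autograft comparisons. With no filter on low counts, 11 of 62 members were called, beside 7.6% of all genes. All autograft libraries lay above all pulmonary ones in 11 members and below them in 2 (IL17RD and IL25), beside 10.9% and 11.2% of all genes. An unadjusted p under 0.05 was found for 19 members and for 30.6% of all genes.

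Against native aortic sinus, the tissue of the position the autograft was moved to, 2 members were higher, IL2RG and IL6ST, and none was lower. There 2.38% of all genes were called, 0.948% higher and 1.43% lower. The median log2 fold change of the members was 0.56, beside 0.00 over all genes. In 10 members all autograft libraries lay above all aortic ones, beside 9.77% of all genes, and in 0 below, beside 10.8%. An unadjusted p under 0.05 was found for 18 members and for 23% of all genes. Both comparisons use the same 3 autograft libraries, so their fold changes are given side by side and not as separate support. In 8 members all 3 autograft libraries lay above all 8 native ones, beside 6.89% of all genes tested. These were IL2RG, IL6ST, IL6R, IL15RA, IL1RN, IL18RAP, IL1R1 and IL17RA. No member lay below all native libraries, beside 7.18% of all genes.

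**Figure D1:**
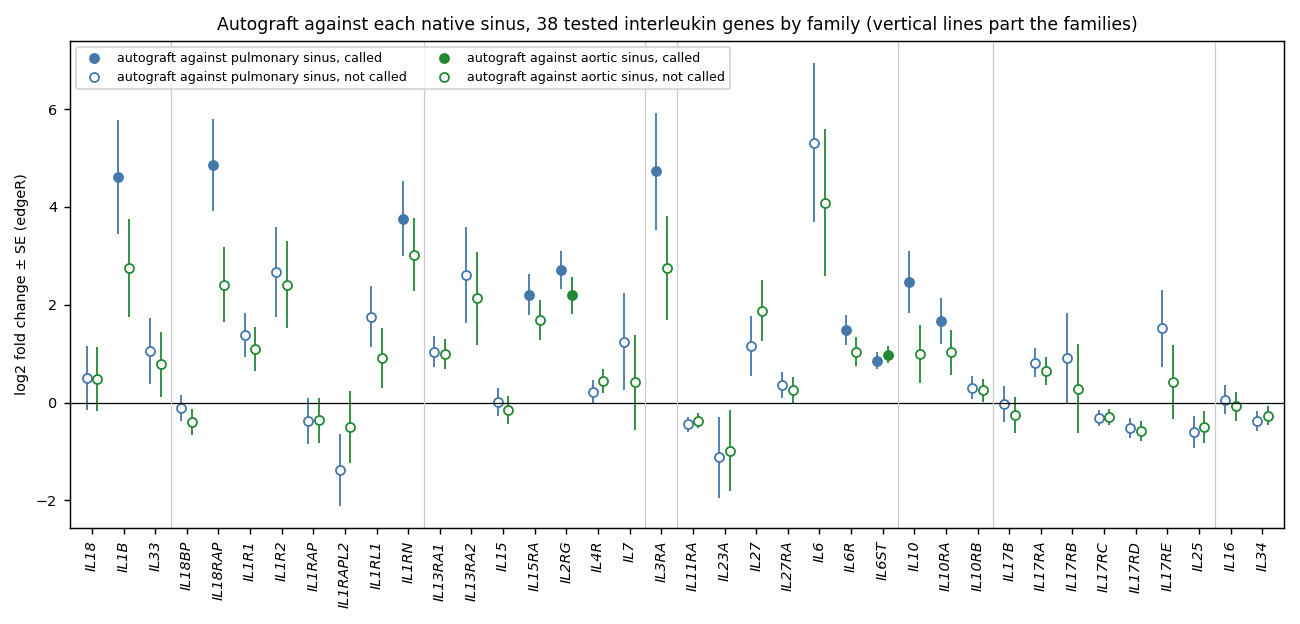
Log2 fold change ± SE from edgeR (y axis) of the 38 tested members (x axis), against pulmonary sinus in blue and against aortic sinus in green. Filled points passed the adjusted p threshold: 10 in blue and 2 in green, each above 0, and IL6, at 5.31 against pulmonary sinus, has the highest point but is not filled.

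Between the native tissues, 0 of 38 members were called in edgeR, and 0% of all genes. Unadjusted p was under 0.05 for 2 members, IL10 and IL18RAP, and for 2.04% of all genes, and DESeq2 and limma-voom called 0 members too. IL10 was the 1 member whose aortic libraries (0.574 to 1.40 CPM) all lay above its pulmonary libraries (0.171 to 0.572 CPM), beside 0.714% of all genes, and 0 members lay below, beside 0.701%.

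Receptors of lymphocyte cytokines held IL2RG and IL15RA, called against pulmonary sinus with every single library left out. IL2RG encodes the common gamma chain, a signalling subunit of the receptors for interleukins 2, 4, 7, 9, 15 and 21. Its level was 6.81, 10.1 and 10.4 CPM in the autograft, 1.78, 2.80, 1.26 and 2.09 CPM in aortic sinus and 2.37, 1.03, 0.843 and 1.31 CPM in pulmonary sinus. Every autograft library was thus above every native one. IL2RG rose by 2.71 ± 0.39 (SE) on the log2 scale against pulmonary sinus (edgeR adjusted p = 0.00671) and 2.19 ± 0.38 against aortic sinus (adjusted p = 0.0261). The first call held in all 11 fits that left out 1 library. The second ended without autograft replicate 2 (adjusted p = 0.0790), aortic replicate 1 (0.0665), aortic replicate 3 (0.0834) or aortic replicate 4 (0.0601). It also ended with run 1 alone (0.0608).

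IL15RA, the chain that binds interleukin-15 and presents it to neighbouring cells, stood at 26.6, 15.2 and 8.18 CPM in the autograft. In the aortic libraries it stood at 6.49, 4.25, 4.30 and 5.64 CPM, and in the pulmonary libraries at 6.38, 2.63, 2.67 and 2.74 CPM. The groups did not overlap, though autograft replicate 3 was close to the highest native libraries. IL15RA rose by 2.21 ± 0.42 on the log2 scale against pulmonary sinus (edgeR adjusted p = 0.0144), in each of the 11 fits that left out 1 library. Against aortic sinus the log2 fold change was 1.69 ± 0.41 (adjusted p = 0.0586), which passed without autograft replicate 3 (0.0416) or pulmonary replicate 1 (0.0318) and in DESeq2 (0.00276). Its ligand gene IL15 was at 3.4, 2.5 and 2.5 CPM in the autograft and between 2.3 and 4.1 CPM in the native libraries (adjusted p = 0.984 and 0.792).

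Other genes of this family gave no call in the edgeR fit of all libraries. IL13RA1, which pairs with IL4R to bind interleukins 4 and 13, was at 202, 145 and 79.8 CPM in the autograft, between 57.6 and 80.3 CPM in aortic sinus and between 48.4 and 100.2 CPM in pulmonary sinus. Autograft replicate 3 lay within the native range. Its log2 fold change was 1.04 ± 0.31 against pulmonary sinus (edgeR adjusted p = 0.0525) and 1.0 ± 0.31 against aortic sinus (0.103). The first value was on the border of the threshold. It passed without autograft replicate 3 (0.0219), pulmonary replicate 1 (0.0206) or animal D3 (0.0296), in DESeq2 (0.00946), with run 1 alone (0.0377), with RLE (0.0491) or upper-quartile (0.0483) scaling, with a filter of 1 CPM in 3 libraries (0.0499) and on FPKM with a pseudocount of 1 (0.0492) or 0.1 (0.0472). The second passed in DESeq2 (0.0235). Members outside the 20 that were named by rule, as described with the processing, were chosen after their values were seen. IL4R, the interleukin-4 receptor chain, ranged from 37.6 to 78.3 CPM in the autograft and from 36.4 to 60.5 CPM in native tissue. IL13RA2, a decoy receptor for interleukin-13, was at 0.562, 2.62 and 1.25 CPM in the autograft and between 0 and 0.565 CPM in the native libraries (edgeR adjusted p = 0.104 against pulmonary sinus). Without animal D3 it was called against pulmonary sinus. IL7, a growth factor of lymphocytes, overlapped between all groups, at 0.398 to 2.47 CPM in the autograft.

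The marker list of T and natural killer cells was higher in the same libraries as IL2RG. Of its 13 genes found in the count tables, 11 were tested, and none of the 13 was at 0 in every library. Of the 11, 8 rose against pulmonary sinus and 4 against aortic sinus, beside 6.05% and 0.948% of all genes called higher. CD8B was the 1 with a negative fold change in both comparisons, without a call. It was at 1.35, 3.38 and 6.13 CPM in the autograft and 1.07 to 7.59 CPM in native tissue. Summed over the 13 genes, the list stood at 38.4, 45.1 and 42.1 CPM in the autograft, between 10.8 and 16.6 CPM in aortic sinus and between 4.57 and 12.3 CPM in pulmonary sinus. B and plasma cell markers, summed over 8 genes, were also higher in every autograft library, at 15.97, 63.46 and 21.47 CPM. Their native sums were 8.17 to 9.35 CPM in aortic sinus and 5.42 to 8.70 CPM in pulmonary sinus. Of these 8 genes, 1 was at 0 in every library and 2 were tested. In edgeR 2 rose against pulmonary sinus and 1 against aortic sinus, beside the same shares of all genes. The part of either list in the result for IL2RG was not tested. The list of macrophage and monocyte markers held 14 genes. In edgeR 7 were called higher against pulmonary sinus and 0 against aortic sinus, beside 6.05% and 0.948% of all genes. Against aortic sinus 8 had an unadjusted p under 0.05, beside 23% of all genes. The list summed to 1487, 1081 and 241 CPM in the autograft. In native tissue it lay between 88.6 and 515 CPM. IL15RA, IL13RA1, IL10RA and IL10 followed the same order over the autograft libraries, replicate 1 the highest and replicate 3 the lowest. So did IL10RB, IL15, IL16, IL33, IL7 and IL17RE, none of them called with all libraries. The part of macrophage number in these values was not tested.

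**Figure D2:**
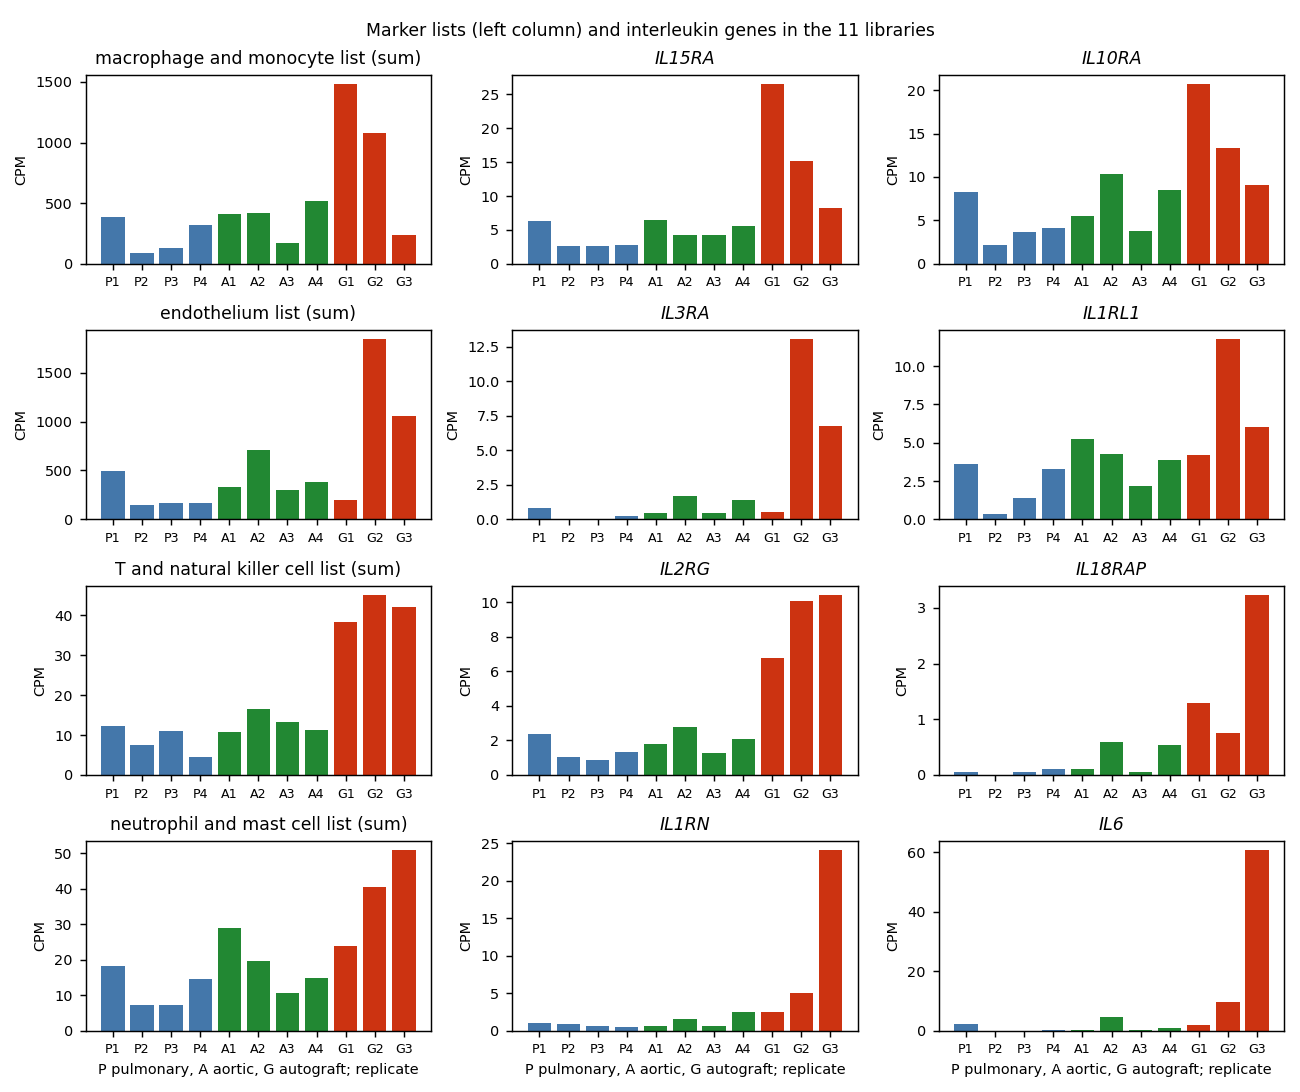
Summed CPM of 4 marker lists (left column) and CPM of 8 interleukin genes (other columns) as bars for the 11 libraries (x axis: P pulmonary, A aortic, G autograft, with replicate number; y axes in CPM from 0). Within the autograft, the macrophage sum, IL15RA and IL10RA are highest in library 1 and lowest in library 3 (1487 and 241 CPM for the sum), while IL1RN and IL6 are highest in library 3.

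Among the genes of the interleukin-6 family, both chains that make a cell responsive to interleukin-6 were higher in the autograft. IL6ST encodes gp130, the signalling chain shared by interleukins 6, 11 and 27 and related cytokines. It was at 308, 427 and 426 CPM in the autograft, 175, 200.2, 187 and 224 CPM in aortic sinus and 225, 156, 226 and 249 CPM in pulmonary sinus. All autograft values lay above all native values. IL6ST rose by 0.85 ± 0.17 on the log2 scale against pulmonary sinus (edgeR adjusted p = 0.0164) and 0.98 ± 0.17 against aortic sinus (0.0275). Against pulmonary sinus the call ended without autograft replicate 2 (0.0554) and when the 2 groups were fitted alone (0.0535). Against aortic sinus it ended without autograft replicate 2 (0.0841), autograft replicate 3 (0.0534), aortic replicate 1 (0.0665), 2 (0.0507), 3 (0.0871) or 4 (0.0504), or animal D3 (0.0653). The summed level of 10 fibroblast markers was also higher in every autograft library than in any native one. It stood at 24500, 18452 and 20859 CPM in the autograft. The native sums were 9356 to 11126 CPM in aortic sinus and 5349 to 13233 CPM in pulmonary sinus. Within the autograft the order differed, with replicate 1 the highest for this sum and the lowest for IL6ST and IL1R1. Replicate 1 was also the lowest autograft library for the sums of endothelial (201, 1844 and 1055 CPM) and adipocyte markers (41.8, 922 and 445 CPM). In that library both sums lay within or below the native ranges, 145 to 713 CPM and 85.4 to 497 CPM. Of the 10 fibroblast markers 5 rose against pulmonary sinus and 3 against aortic sinus, beside 6.05% and 0.948% of all genes. None of the 10 was at 0 in every library. The part of these 3 lists in the levels of IL6ST, IL6R and IL1R1 was not tested.

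IL6R, the chain that binds interleukin-6 itself, was at 43.4, 45.8 and 36.3 CPM in the autograft. The aortic libraries stood at 26.5, 20.1, 15.2 and 19.3 CPM and the pulmonary libraries at 18.4, 6.91, 13.9 and 20.5 CPM. The lowest autograft library was above the highest native one. IL6R rose by 1.49 ± 0.31 on the log2 scale against pulmonary sinus (edgeR adjusted p = 0.0168), which ended without autograft replicate 2 (0.0527) or pulmonary replicate 3 (0.0513). Against aortic sinus the value was 1.04 ± 0.30 (0.0860) and passed without pulmonary replicate 2 (0.0326), with the 2 groups alone (0.0434) and in DESeq2 (0.0161).

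The ligand IL6 differed widely between libraries of a group. It was at 1.86, 9.49 and 60.7 CPM in the autograft, 0.152, 4.45, 0.0574 and 0.913 CPM in aortic sinus and 2.32, 0, 0 and 0.114 CPM in pulmonary sinus. These stand for 33, 163 and 1069 counts in the autograft, 3, 89, 1 and 17 in aortic sinus and 41, 0, 0 and 2 in pulmonary sinus. Autograft replicate 1 lay within the native range and replicate 3 far above it. The log2 fold change was 5.31 ± 1.63 against pulmonary sinus (edgeR adjusted p = 0.0571) and 4.09 ± 1.51 against aortic sinus (0.146). Most pulmonary counts lay in replicate 1, so the size of the first value rests largely on that library, and it was 9.12 without it. The first value passed without pulmonary replicate 1 (0.0176), autograft replicate 1 (0.0473) or aortic replicate 2 (0.0495), without animal D3 (0.0208), in DESeq2 (0.0416) and with run 1 (0.0454) or run 2 (0.0475) alone. Without autograft replicate 3 it was 3.22 (0.225).

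IL11RA, the binding chain for interleukin-11, went the other way without being called. It stood at 124, 127 and 157 CPM in the autograft, 198, 146, 182 and 175 CPM in aortic sinus and 151, 212, 202 and 173 CPM in pulmonary sinus, so that only autograft replicate 3 reached the native range. Its fitted difference was -0.44 ± 0.15 on the log2 scale against pulmonary sinus (edgeR adjusted p = 0.0787) and -0.37 ± 0.15 against aortic sinus (0.179). IL11RA was called lower than pulmonary sinus without pulmonary replicate 1, without animal D3 and in DESeq2, the 1 member called lower in these fits. IL27RA, the interleukin-27 receptor chain, overlapped between groups, at 30.9 to 58.3 CPM in the autograft and 22.4 to 50.5 CPM in native tissue. IL27, a subunit of that ligand, was at 20, 10 and 20 counts in the autograft against 3 to 6 in the aortic libraries (edgeR adjusted p = 0.119) and 1 to 15 in the pulmonary ones. IL23A, a subunit of interleukin-23, was at 0 to 8 counts in the autograft and 4 to 22 in native tissue.

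Levels of different genes can be set against each other only per length, for which the authors' deposited FPKM values were used (mean of both runs). Per length, the receptor genes IL11RA and IL6ST were the most abundant members. In native tissue IL11RA was above IL6ST, at 66.0 ± 7.71 against 31.0 ± 2.07 FPKM in aortic sinus (SD, n = 4) and 71.6 ± 7.66 against 35 ± 7.9 FPKM in pulmonary sinus. In the autograft the order was turned, with IL6ST at 75.7 ± 18.8 and IL11RA at 53.9 ± 8.42 FPKM (SD, n = 3). Next in level over all libraries came IL17RC at 24.0, IL13RA1 at 23.1, IL27RA at 15.3, IL33 at 14.7, IL18BP at 11.5 and IL17RA at 11.5 FPKM. In aortic sinus the last 4 were at 14.3 ± 3.29, 13.3 ± 3.76, 13.1 ± 2.75 and 9.59 ± 2.3 FPKM (SD, n = 4), and neighbours in this order overlapped within 1 SD.

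The interleukin-1 family held ligands, receptors and inhibitors, and its largest changes were in genes of low native level. IL1B, the inflammatory ligand made mainly by activated myeloid cells, was at 0.281, 0.815 and 5.34 CPM in the autograft, or 5, 14 and 94 counts. In aortic sinus it had 3, 10, 0 and 11 counts and in pulmonary sinus 1, 1, 1 and 3. The autograft lay above all pulmonary libraries but overlapped the aortic ones, and replicate 3 held most of the counts. The fitted log2 fold change of 4.60 ± 1.16 against pulmonary sinus (edgeR adjusted p = 0.0323) rests on pulmonary counts of only 1, 1, 1 and 3. Its call ended without autograft replicate 2 (0.0541) or 3 (0.134) and without pulmonary replicate 2 (0.0891), 3 (0.0925) or 4 (0.0535), without animal D3 (0.0541), in limma-voom (0.117) and on FPKM (0.140 with a pseudocount of 1), and IL1B failed the count filter without aortic replicate 4. Without autograft replicate 3 the log2 fold change was 2.64. Against aortic sinus the value was 2.75 ± 1.01 (0.145), and 0.79 without that library.

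IL1RN, the receptor antagonist that blocks interleukin-1, was at 2.47, 5.07 and 24.1 CPM in the autograft. It stood at 0.558, 1.60, 0.574 and 2.42 CPM in aortic sinus and 1.02, 0.913, 0.656 and 0.515 CPM in pulmonary sinus. All autograft libraries were above all native ones, although replicate 1 exceeded the highest aortic library by little. IL1RN rose by 3.76 ± 0.77 on the log2 scale against pulmonary sinus (edgeR adjusted p = 0.0167), and this ended without pulmonary replicate 3 (0.0533) and in limma-voom (0.0609). Without autograft replicate 3 the value was 2.27 (0.0428). Against aortic sinus the value was 3.02 ± 0.74 (0.0579), which passed without autograft replicate 1 (0.0410), without both replicates 1 (0.0372), with run 1 alone (0.0480) and in DESeq2 (0.00136), and was 1.54 (0.174) without autograft replicate 3. Autograft replicate 3 was the highest library for IL1B, IL1RN, IL6, IL18RAP and IL1R2. In that library the summed macrophage list was the lowest of the autograft, at 241 CPM, and the list of neutrophil and mast cell markers the highest, at 50.9 CPM against 23.7 and 40.5 CPM in autograft replicates 1 and 2, 10.7 to 28.9 CPM in aortic sinus and 7.26 to 18.4 CPM in pulmonary sinus. Of 5 tested genes of the latter list 0 were called in edgeR in either autograft comparison, beside 11.3% and 2.38% of all genes. Against pulmonary sinus 4 of them had an unadjusted p under 0.05, beside 30.6% of all genes. The list's part in these levels was not tested.

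**Figure D3:**
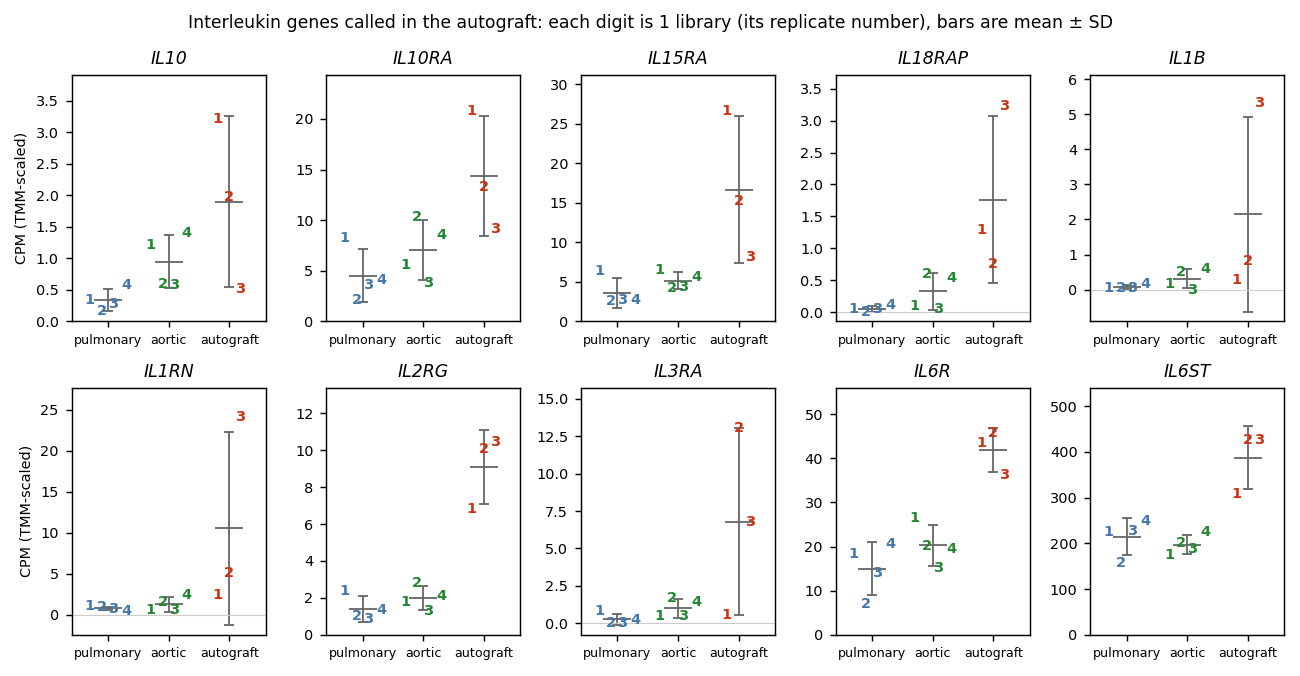
CPM (y axes) of the 10 members called in edgeR in the 3 groups (x axes). Each digit is the replicate number of 1 library and bars give mean ± SD (n = 4, 4 and 3); IL2RG, IL6R and IL6ST have compact autograft groups above the native libraries, while IL1B, IL1RN and IL18RAP are highest in autograft replicate 3 and IL3RA in replicate 2.

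The signalling receptor IL1R1 was more abundant per length than IL1B and IL1RN in each group, with a mean of 14.5 FPKM in the autograft against 2.47 and 3.24 FPKM. It was higher in all autograft libraries than in any native one. It stood at 106, 142 and 115 CPM in the autograft, 40.8, 72.0, 41.3 and 72.2 CPM in aortic sinus and 74.2, 16.6, 26.8 and 69.9 CPM in pulmonary sinus. The log2 fold change of 1.37 ± 0.45 against pulmonary sinus did not pass (edgeR adjusted p = 0.0688). It passed without pulmonary replicate 1 (0.0327), animal D3 (0.0393) or both replicates 1 of autograft and pulmonary sinus (0.0498), with run 1 alone (0.0484), in limma-voom without (0.0436) and with a random block by animal (0.0453), and in DESeq2 (0.0129). Against aortic sinus it was 1.10 ± 0.45 (0.175), and passed with a block by replicate number (0.0467). The decoy receptor IL1R2 was at 0.450, 1.40 and 2.21 CPM in the autograft and between 0 and 0.565 CPM in native tissue (adjusted p = 0.0782 against pulmonary sinus). IL1R2 was called against pulmonary sinus in DESeq2 and without both replicates 1. IL1RAP, the accessory chain that IL1R1 needs for signalling, overlapped fully, at 1.05 to 2.42 CPM in the autograft and 0.971 to 3.16 CPM in native tissue. IL1RAPL2, a related receptor of neurons, was at 3 to 10 counts in the autograft and 3 to 27 in native tissue.

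IL33, an alarm signal released from damaged endothelial and stromal cells, was the most abundant interleukin-1 ligand per length. It was at 192, 68.1 and 44.8 CPM in the autograft, 49.5, 68.4, 42.7 and 76.9 CPM in aortic sinus and 114, 20.8, 11.9 and 48.4 CPM in pulmonary sinus. The highest values were in autograft replicate 1 and pulmonary replicate 1, the libraries that stood apart on the principal components, and the groups overlapped. No test passed (log2 fold change 1.06 ± 0.68, edgeR adjusted p = 0.312 against pulmonary sinus; 0.78 ± 0.67 and 0.518 against aortic sinus), except against pulmonary sinus without pulmonary replicate 1 (1.89, 0.0493), and without autograft replicate 1 the value was 0.21 (0.871). Its receptor gene IL1RL1, also called ST2, was at 4.22, 11.8 and 6.02 CPM in the autograft, 2.18 to 5.23 CPM in aortic sinus and 0.343 to 3.62 CPM in pulmonary sinus. All autograft libraries were above all pulmonary ones, with a log2 fold change of 1.76 ± 0.62 (adjusted p = 0.0848), and DESeq2 called it.

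IL18RAP, the accessory chain of the interleukin-18 receptor carried by natural killer and T cells, was at 1.29, 0.757 and 3.24 CPM in the autograft, or 23, 13 and 57 counts. In aortic sinus it had 2, 12, 1 and 10 counts and in pulmonary sinus 1, 0, 1 and 2. Every autograft library exceeded every native one. The fitted log2 fold change of 4.86 ± 0.94 against pulmonary sinus (edgeR adjusted p = 0.0147) rests on near-absent pulmonary counts, and the call held in all 11 fits that left out 1 library, with a value of 4.08 without autograft replicate 3. Against aortic sinus it was 2.41 ± 0.77 (0.109). The ligand IL18 overlapped between groups, at 55, 14 and 15 CPM in the autograft and 5.02 to 34.9 CPM in native tissue. IL18BP, the soluble protein that neutralises interleukin-18, was at 6.58, 11.5 and 6.25 CPM in the autograft, 13.9, 8.60, 9.64 and 10.5 CPM in aortic sinus and 7.97, 9.76, 10.5 and 6.63 CPM in pulmonary sinus. These values overlapped throughout (adjusted p = 0.824 and 0.406). IL18R1, the binding chain for interleukin-18, was not tested and had 0 to 4 counts in a library.

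IL3RA, the alpha chain of the interleukin-3 receptor, found on plasmacytoid dendritic cells, basophils and endothelium, had the most uneven autograft values among the called receptors. It was at 0.562, 13.0 and 6.76 CPM in the autograft, 0.457, 1.70, 0.459 and 1.40 CPM in aortic sinus and 0.791, 0, 0 and 0.229 CPM in pulmonary sinus. Autograft replicate 1 lay within the range of both native groups. The fitted log2 fold change was 4.73 ± 1.20 against pulmonary sinus (edgeR adjusted p = 0.0323) and 2.75 ± 1.06 against aortic sinus (0.160). With pulmonary libraries at 14, 0, 0 and 4 counts, the size of the first value rests largely on pulmonary replicate 1. The call against pulmonary sinus ended without autograft replicate 2 (0.103) or pulmonary replicate 2 (0.0792), 3 (0.0781) or 4 (0.0679). It also ended with the 2 groups alone (0.0777), in limma-voom (0.104) and on FPKM (0.0538 with a pseudocount of 1). Leaving out autograft replicate 2 gave 3.84, and leaving out pulmonary replicate 1 gave 6.41. The summed level of 11 endothelial markers was likewise low in autograft replicate 1, at 201 CPM against 1844 and 1055 CPM in replicates 2 and 3. In native tissue it lay between 145 and 713 CPM. Against pulmonary sinus 2 of these 11 genes rose, beside 6.05% of all genes. The list's part in the level of IL3RA was not tested. IL1RL1 had the same order over the autograft libraries, as did IL6ST, IL1R1, IL4R, IL13RA2, IL17B, IL17RA, IL17RC and IL27RA.

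In the interleukin-10 family, IL10, a ligand that restrains macrophages and T cells, was at 3.21, 1.98 and 0.511 CPM in the autograft. It stood at 1.22, 0.60, 0.574 and 1.40 CPM in aortic sinus and 0.339, 0.171, 0.281 and 0.572 CPM in pulmonary sinus. Autograft replicate 3 lay below the highest pulmonary library. IL10 was called against pulmonary sinus (log2 fold change 2.46 ± 0.63, edgeR adjusted p = 0.0341), and not against aortic sinus (1.0 ± 0.59, 0.341). The call ended without autograft replicate 1 (0.107) or 2 (0.0830), pulmonary replicate 2 (0.0931) or 3 (0.0934), or animal D3 (0.0533), without autograft and pulmonary replicates 1 together (0.127), with the 2 groups alone (0.0757), in limma-voom (0.0810), on FPKM (0.0976 with a pseudocount of 1) and with run 1 (0.0763) or run 2 (0.0785) alone. Leaving out autograft replicate 1 gave log2 fold changes of 1.845 against pulmonary sinus and 0.40 against aortic sinus.

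IL10RA, the ligand-binding chain carried by leukocytes, was at 20.8, 13.3 and 9.09 CPM in the autograft, 5.53, 10.4, 3.79 and 8.54 CPM in aortic sinus and 8.25, 2.11, 3.61 and 4.12 CPM in pulmonary sinus. The autograft was above all pulmonary libraries, while replicate 3 lay within the aortic range. The log2 fold change was 1.67 ± 0.47 against pulmonary sinus (edgeR adjusted p = 0.0434) and 1.02 ± 0.46 against aortic sinus (0.213). The call ended without autograft replicate 1 (0.123) or 2 (0.0895), aortic replicate 1 (0.0557) or 4 (0.0582), or pulmonary replicate 2 (0.102), 3 (0.111) or 4 (0.0848), and with the 2 groups alone (0.0778). IL10RB, the widely expressed second chain, overlapped between groups at 14, 12 and 11 CPM in the autograft and 6.46 to 12.4 CPM in native tissue (adjusted p = 0.414 and 0.553).

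**Figure D4:**
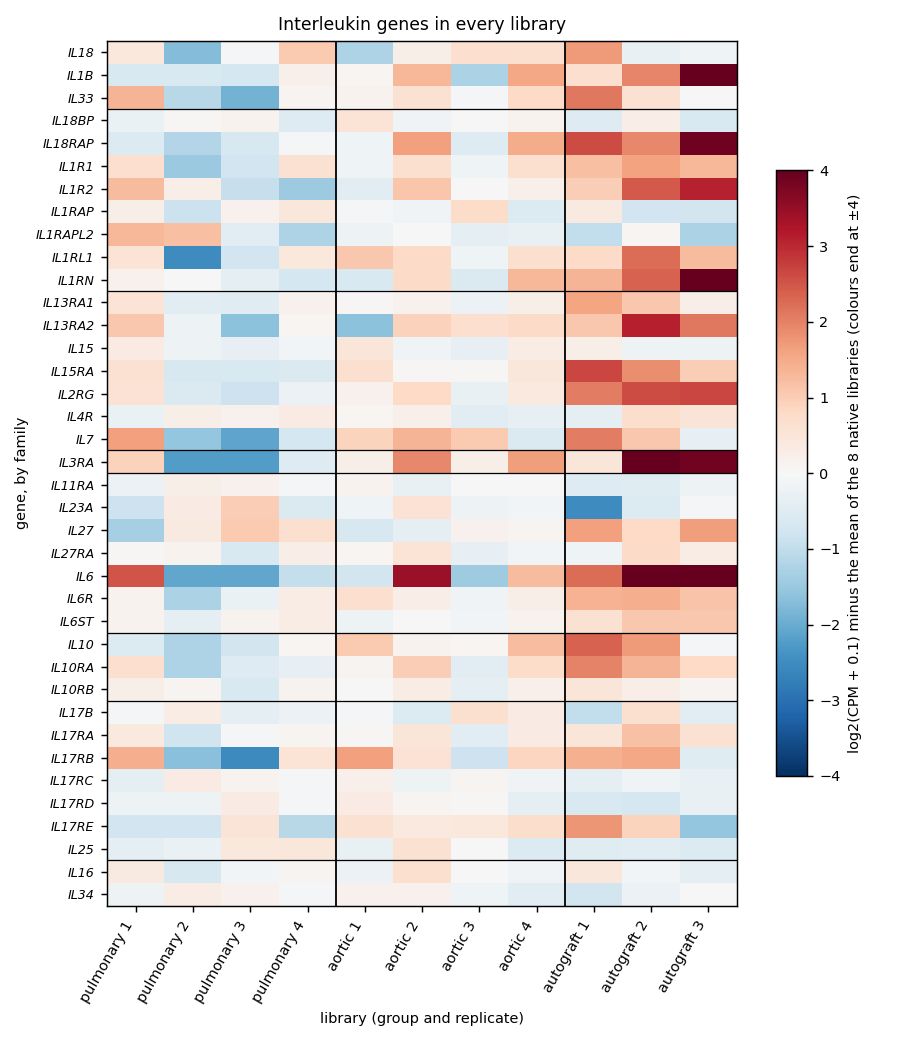
Each cell is log2(CPM + 0.1) of 1 tested member (rows, by family) in 1 library (columns, by group) minus the mean of that gene over the 8 native libraries, with colours ending at ±4. IL2RG, IL15RA, IL6R and IL6ST are red in all 3 autograft columns, whereas IL1B and IL1RN are darkest in autograft 3 and IL17RC stays pale.

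The interleukin-17 family, ligands and receptors of neutrophil-recruiting responses, gave 0 calls among 7 tested members in either autograft comparison in edgeR. Of all genes, 11.3% were called against pulmonary sinus and 2.38% against aortic sinus. In each comparison 2 members had an unadjusted p under 0.05, beside 30.6% and 23% of all genes. The family's median log2 fold change was -0.03 against pulmonary sinus and -0.25 against aortic sinus. IL17RA, the chain shared by most receptors of the family, stood at 16.4, 26.5 and 17.8 CPM in the autograft, just above native tissue at 12, 16.4, 8.61 and 14.7 CPM (aortic) and 15.4, 6.79, 11.1 and 12.6 CPM (pulmonary). Fitted log2 fold changes were 0.82 ± 0.29 (edgeR adjusted p = 0.0884) and 0.65 ± 0.29 (0.214). The first passed in DESeq2 (0.0413), with run 1 alone (0.0408) and without pulmonary replicate 1 (0.0479). IL17RD, a family member that also restrains fibroblast growth factor signalling, was at 12.9, 12.2 and 16.2 CPM in the autograft, 25.3, 21.7, 20.8 and 15.1 CPM in aortic sinus and 17.5, 17.3, 25.3 and 19.0 CPM in pulmonary sinus. It lay below all pulmonary libraries without a call (-0.52 ± 0.20, 0.109), and replicate 3 lay above 1 aortic library (-0.59 ± 0.20, 0.126). IL17RC, the partner of IL17RA, was at 25.1, 29.2 and 26.8 CPM in the autograft and 25.4 to 41.2 CPM in native tissue (-0.31 ± 0.17, 0.226; -0.30 ± 0.17, 0.311). The ligands IL17B, at 7.42 to 22.9 CPM in the autograft and 10.1 to 22.7 CPM in native tissue, and IL25, at 2.84 to 3.09 and 2.85 to 6.40 CPM, were detected in all libraries.

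Outside these families, IL34, a second ligand of the macrophage receptor CSF1R, was at 32.6, 46.1 and 54.1 CPM in the autograft and 41.1 to 66.6 CPM in native tissue. Fitted values were -0.37 ± 0.20 on the log2 scale against pulmonary sinus (edgeR adjusted p = 0.230) and -0.27 ± 0.20 against aortic sinus (0.443). CSF1, the other ligand of that receptor, was called higher than in pulmonary sinus, with means of 142 ± 56.6 CPM (SD, n = 3) and 59.5 ± 25.5 CPM (SD, n = 4) and a difference of 1.26 ± 0.36 on the log2 scale (adjusted p = 0.0462), and this call ended in 9 of the 11 fits that left out 1 library. IL16, which attracts CD4+ cells, was at 12.6, 8.50 and 7.10 CPM in the autograft and 5.88 to 14.5 CPM in native tissue, overlapping between groups (adjusted p = 0.915 and 0.902).

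The 40 members that were not tested had at most 16 counts in any library. Of these, 16 had 0 counts in all 11 libraries, which allows up to 3 counts in a library, counting error only. They include the T cell cytokines IL2, IL4, IL17A, IL21 and IL22, the growth factors IL3 and IL9, and the epithelial cytokines IL36A, IL36B and IL36G. At this depth their transcripts were not detectable. The others were seen at a few counts. IL12RB2, a chain of the interleukin-12 receptor of T and natural killer cells, had 7, 3 and 11 counts in the autograft and 0 or 1 in each native library. IL12RB1, its partner, had 12, 2 and 13 counts in the autograft and 0 to 4 in native tissue. IL22RA2, a soluble inhibitor of interleukin-22, had 1, 1 and 6 counts in the autograft and 0 in all 8 native libraries. IL2RA, the high-affinity chain of the interleukin-2 receptor, had 3, 4 and 4 counts in the autograft, 3 to 10 in aortic sinus and 0 to 2 in pulmonary sinus.

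Genes that carry interleukin signals inside the cell were counted by pathway. Of 20 tested genes of the Janus kinase and STAT pathway, 3 rose and 2 fell against pulmonary sinus in edgeR. Of all genes tested, 6.05% rose and 5.29% fell there. Against aortic sinus 0 passed, beside 2.38% of all genes, and 6 had an unadjusted p under 0.05, beside 23%. The median log2 fold changes of the pathway were 0.07 and -0.02. JAK2, a kinase bound by several of these receptors, had a mean of 77.9 ± 9.0 CPM in the autograft (SD, n = 3) and 41.5 ± 10.9 CPM in pulmonary sinus (SD, n = 4) and rose by 0.91 ± 0.22 on the log2 scale (adjusted p = 0.0280). JAK3, the kinase bound to the IL2RG chain, rose by 1.71 ± 0.49 (0.0471), and PTPN6, a phosphatase of blood cells that dampens cytokine signals, by 1.51 ± 0.41 (0.0415). PIAS1, a SUMO ligase, fell (-0.42 ± 0.11, 0.0364), and the kinase gene TYK2 fell (-0.33 ± 0.09, 0.0453). Over the 11 fits that left out 1 library, the calls ended in 4 for JAK2, 8 for JAK3, 7 for PTPN6, 8 for PIAS1 and 10 for TYK2. STAT3, the main factor downstream of gp130, stood at 161 ± 20.3 CPM in the autograft and 157 ± 25.4 CPM in pulmonary sinus (adjusted p = 0.860). SOCS3, a feedback inhibitor of gp130 signalling, was at 14 ± 9.78 CPM against 3.65 ± 3.26 CPM, with an adjusted p of 0.117.

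Of 23 tested genes of the MyD88 and NF-kB pathway, 0 were called in edgeR in either autograft comparison, beside 11.3% and 2.38% of all genes. Unadjusted p was under 0.05 for 8 and 7 of them, beside 30.6% and 23% of all genes. Their median log2 fold changes were 0.09 and -0.03. Of 6 tested inflammasome genes, 1 rose against pulmonary sinus, beside 6.05% of all genes. This was NLRC4, a sensor that activates interleukin-1 processing, from 0.690 ± 0.186 to 3.59 ± 2.11 CPM (2.37 ± 0.62, edgeR adjusted p = 0.0366). Its call ended in 5 of the 11 fits that left out 1 library. Of 13 tested related cytokines and receptors, CSF1 was the 1 called, against pulmonary sinus, where 11.3% of all genes were called. The gp130 partner chains LIFR and OSMR, receptors for leukaemia inhibitory factor and oncostatin M, were not called, with log2 fold changes of 0.39 ± 0.34 (adjusted p = 0.467) and 0.55 ± 0.31 (0.255) against pulmonary sinus.

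The number of interleukin genes called against pulmonary sinus depended on single libraries. It was 17 of 37 without pulmonary replicate 1 (18.5% of all genes called), 6 of 37 without pulmonary replicate 2 (3.5%), 4 of 37 without pulmonary replicate 3 (3.38%) and 4 of 41 without autograft replicate 2 (2.97%). IL2RG, IL15RA and IL18RAP were the 3 called in each of the 11 fits. Without pulmonary replicate 1 the 10 members called with all libraries were called again, joined by IL6, IL13RA1, IL7, IL1R1, IL17RA and IL33, which were higher, and IL11RA, which was lower. Without both autograft replicate 1 and pulmonary replicate 1, 12 of 39 were called (14.6% of all genes), 9 of the 10 among them. Without animal D3, 14 of 37 were called (15.9%), 8 of the 10 among them. DESeq2 called 17 of 38 (20.1%), and the fit of the 2 groups alone 5 of 36 (3.28%). Against aortic sinus the count of 2 went to 0 without autograft replicate 2 (0.164% of all genes called), aortic replicate 1 (0.409%), 3 (0.201%) or 4 (0.469%). In these edgeR fits 15, 11, 12 and 13 members had an unadjusted p under 0.05. The share of all genes at that unadjusted threshold was not computed for them. The count called went to 1 without aortic replicate 2 (0.746%) or animal D3 (0.743%). It was 3 without autograft replicate 1 (1.12%), pulmonary replicate 1 (3.87%) or pulmonary replicate 2 (2.26%), 4 without both replicates 1 (2.63%) and 6 in DESeq2 (9.83%).

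**Figure D5:**
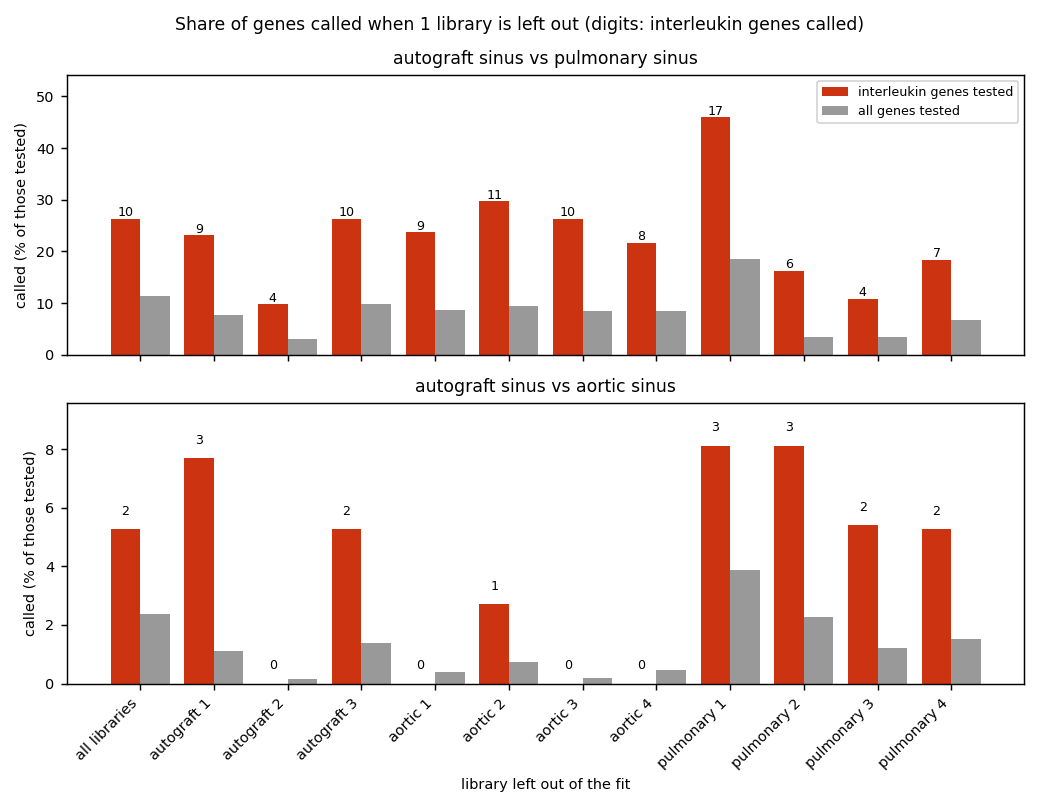
Percent of interleukin genes (red, with the number called) and of all genes (grey) called in edgeR (y axis) with all libraries and with each library left out in turn (x axis), against pulmonary sinus (top) and aortic sinus (bottom). Against pulmonary sinus the red bars carry between 4 and 17 genes; against aortic sinus they carry 0 to 3.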

How the data were processed

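Per the labels' protocols, RNA came from TRIzol and went into TruSeq libraries. The submitters' processing notes list featureCounts 1.5.3, STAR 2.5.2b, Bowtie2 2.3.3.1 and cutadapt, without role or order. Build, annotation and strand setting: not given in the sources used here. Overlapping or near-identical genes therefore cannot be separated further. The authors deposited raw whole-number counts per gene symbol for 2 runs, and counts of both runs were added per library. Per gene, the chi-square was 1.39 to 1.52 between both runs of 1 library and 31.9 to 112 between libraries of 1 group. A row without a symbol held at most 0.000522% of a library and was left out. The authors' deposited FPKM tables have no value at 0, even where the count is 0 (4505 values in run 1), and nearly equal distributions in all libraries, so FPKM served only for levels per length and as an alternative unit.

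After filterByExpr and TMM scaling, 1 quasi-likelihood fit in edgeR 4.0.16 (R 4.3.3) covered all 3 groups, with Benjamini-Hochberg adjustment over 14979 genes. The fit was tested on simulated data. Alternatives used DESeq2 1.42.0, limma 3.58.1, other scalings, filters, units and runs, and each library left out. Aortic and pulmonary libraries are paired by the animal in the labels. Their deviations from the group means correlated at -0.18 (D3), -0.14 (D4), 0.43 (D5) and 0.45 (D6) within animals.

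Members and lists were chosen with earlier results of these data known. Given in every library were called members and, per family, the 2 with the smallest p and the 1 with the highest FPKM, 20 in all. From each other list, at most 4 called genes with the smallest p were to be named. STAT3, SOCS3, LIFR, OSMR, the JAK and STAT genes beyond 4, IL6, IL1R1 and other members were added after their values were seen.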

Additional observations from a re-analysis of the deposited data

Results flagged for a closer look

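Among the 38 tested members, each native group of 4 libraries was searched for a highest or lowest log2 CPM (prior count 2) far from the others, as the gap to the nearest library over the range of the group. Chance gives such a sample in about 1 in 20 groups, and 5 were found in 76 groups. IL15RA in pulmonary replicate 1 had a ratio of 0.951, at 2.70 log2 CPM against 1.51 in the nearest library. IL10RB was low in pulmonary replicate 3 (ratio 0.880, 6.46 CPM). IL1B was highest in pulmonary replicate 4 (0.892), where it had 3 counts against 1 in each other pulmonary library. IL13RA2 was lowest in aortic replicate 1 (0.898), at 0 counts. IL23A was highest in aortic replicate 2 (0.898), at 0.750 CPM.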

How the results depend on the processing

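Against pulmonary sinus, the count of 10 called members stayed within 1.5 times under 19 of 26 alternatives. It was 17 with DESeq2, 5 with the 2 groups fitted alone, and 4 to 17 over the fits that left out 1 library. Against aortic sinus the count of 2 stayed within 1.5 times under 17 of 26 alternatives. It was 6 with DESeq2, 1 without animal D3, 4 without autograft and pulmonary replicates 1 together (chosen after seeing the data), and 0 to 3 with 1 library left out. The cause of these differences was not tested. Between native tissues it was 0 under all 26 alternatives. With a replicate block by number (replicates 1 to 3, which name different animals in the autograft and native groups), 0 members were called against pulmonary sinus in edgeR, as were 0% of all genes. There 14 members had an unadjusted p under 0.05, and the share of all genes at that threshold was not computed. Against aortic sinus 1 was called (0.544% of all genes), IL1R1, while IL2RG (adjusted p = 0.0592) and IL6ST (0.0588) were not. A random replicate block by animal gave 7 (10.8% of all genes) and 2 (2.41%), and a fixed replicate block by animal gave 0 between native tissues.

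Fold changes were recomputed for 22 members in the autograft comparisons. Over all settings, 54 values against pulmonary sinus lost their call, 32 gained one and 472 kept direction and call. Against aortic sinus these were 14, 13 and 531. Signs turned for members that were not called. IL16 against pulmonary sinus ran from -0.215 (without autograft replicate 1) to 0.223 with 1 library left out, with -0.097 without pulmonary replicate 2 and -0.072 without both replicates 1. IL16 against aortic sinus was 0.019 and 0.017 with an FPKM pseudocount of 1 and 0.1, and ran from -0.352 to 0.179 with libraries left out. IL18BP against pulmonary sinus ran from -0.451 to 0.048, and IL33 against aortic sinus from -0.080 (without both replicates 1) to 1.131. Fold changes between the native tissues were refitted in most settings too, but are not listed per member. Depth limits the members with few counts, among them IL1B and IL18RAP.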
